A study of Mus musculus with 24 samples.

Results

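Lymphatic endothelial genes are genes whose RNA marks the cells that line lymphatic vessels, here Prox1, Flt4, Lyve1, Pdpn, Gpr182, Reln and Mmrn1. The 7 genes were chosen by symbol from the 16118 genes of the deposited table, and all 7 were among the 16005 genes that passed the filter on low reads. They were followed in the inguinal white fat pad, which lies under the skin of the groin, in 24 young mice with 1 poly(A) RNA library each and 4 mice per group. Males and females were taken at postnatal day 21 (p21), or at postnatal day 28 (p28) after standard weaning (SW, separation from the mother at p21) or delayed weaning (DW, left with the mother). Strain, genotype and litter are not named in the labels used here, and no treatment other than the weaning is given. The study asks how this depot is remodelled in each sex when breastfeeding is prolonged.

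Lymphatic vessels take fluid, lipid and immune cells out of tissue and return them to the blood, and inguinal fat also holds a lymph node that these vessels drain into. Prox1 encodes the transcription factor that sets and keeps lymphatic identity, and Flt4 encodes VEGFR-3, the receptor through which VEGF-C and VEGF-D drive lymphatic growth. Lyve1 encodes a hyaluronan receptor of lymphatic capillaries that tissue macrophages also carry, and Pdpn encodes podoplanin, a surface glycoprotein also made by fibroblasts. Gpr182 encodes an atypical chemokine receptor of lymphatic and some blood endothelium, Reln the secreted glycoprotein reelin, and Mmrn1 multimerin-1, which endothelial cells and platelets store. In RNA from whole tissue, fewer cells of a type and less RNA per cell cannot be told apart.

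Promoter sequences were read from RefSeq (GRCm38.p6, 250 bases before to 50 after a transcription start) and matched by symbol to 5 of the 7 genes, Prox1 with 2 windows. No window was held for Lyve1 or Gpr182. A window of each of Prox1, Reln and Mmrn1, the 3 genes with a window that passed the test in a comparison, is given 5′ to 3′ on the gene's strand. The other Prox1 window is not printed. Capitals mark matches to 4 motifs on either strand. The SOX motif was spelled ACAAT and the GATA motif was spelled AGATAA. The nuclear receptor motif was spelled AGGTCA and the ETS motif was spelled CGGAAG.
Prox1, chr1:190170778-190171077, minus strand: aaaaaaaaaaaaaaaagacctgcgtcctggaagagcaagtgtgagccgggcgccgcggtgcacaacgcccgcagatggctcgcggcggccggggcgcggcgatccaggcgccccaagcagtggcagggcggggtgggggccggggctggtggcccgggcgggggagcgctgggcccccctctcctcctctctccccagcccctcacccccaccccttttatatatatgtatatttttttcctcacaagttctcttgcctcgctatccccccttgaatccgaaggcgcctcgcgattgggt
Reln, chr5:22344656-22344955, minus strand: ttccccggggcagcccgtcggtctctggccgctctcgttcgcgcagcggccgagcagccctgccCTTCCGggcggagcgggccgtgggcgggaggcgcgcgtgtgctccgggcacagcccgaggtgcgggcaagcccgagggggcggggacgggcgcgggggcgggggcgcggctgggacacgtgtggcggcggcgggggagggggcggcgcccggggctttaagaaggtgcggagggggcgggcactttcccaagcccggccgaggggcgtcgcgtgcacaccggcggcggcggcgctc
Mmrn1, chr6:60944067-60944366, plus strand: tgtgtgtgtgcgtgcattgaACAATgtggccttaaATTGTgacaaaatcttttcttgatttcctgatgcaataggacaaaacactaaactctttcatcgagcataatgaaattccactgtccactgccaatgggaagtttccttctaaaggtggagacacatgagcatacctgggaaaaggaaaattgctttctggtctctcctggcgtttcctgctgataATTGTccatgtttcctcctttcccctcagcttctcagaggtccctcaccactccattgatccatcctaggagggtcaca
The Prox1 windows held none of the 4 motifs, and neither did that of Flt4. Reln held 1 ETS match in a window of 80.7% G and C, and Mmrn1 held 3 SOX matches in a window of 44.3% G and C. Pdpn, whose window is not printed, held 1 SOX match and 1 nuclear receptor match. No matches overlapped. Of 32851 mouse promoter windows, 31% held the SOX letters, 11.2% the GATA letters, 16.3% the nuclear receptor letters and 16.9% the ETS letters. A match is a description of the letters, not a site, and no match says only that these letters are not in that window.

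The libraries held 57600711 to 302145813 reads in the listed genes. The library of p21 male 53 was the shallowest, with 14054 genes detected against 15497 or more in each other library. The 5 adipocyte markers (Adipoq, Plin1, Fabp4, Lep and Cidec) summed to 12220 to 14484 in p21 males, 15126 to 21293 in SW males and 16200 to 19830 in DW males. Every p28 male thus lay above every p21 male in this sum. In females the sums were 14855 to 19710 at p21, 14735 to 19402 in SW and 15234 to 19546 in DW. Levels are given in the authors' normalised unit, and changes are differences of log2(value + 1), on which a change of a low gene is understated. A gene was called when limma's p-value, adjusted over the 16005 genes, was under 0.05. Nothing says whether mice of a group shared a litter, so p-values measure the spread between these mice only.

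The deposited table places Prox1 at chr1:189850232-189902911, Flt4 at chr11:49500090-49543566, Lyve1 at chr7:110449814-110462446, Pdpn at chr4:142994001-143026134, Gpr182 at chr10:127583145-127587601, Reln at chr5:22089452-22549700 and Mmrn1 at chr6:60901960-60966362, each span covering a whole protein-coding gene. These spans have the lengths of the GRCm38 annotation for 7 of 7 genes but its start for 0 of 7, so their build is not the one of the promoter windows.

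All 7 genes were detected in all 24 libraries except Mmrn1, which had 0 reads in p21 male 53. Reads per library were 50 to 820 for Prox1, 0 to 567 for Mmrn1, 414 to 1464 for Reln, 816 to 4245 for Flt4, 819 to 3952 for Pdpn, 755 to 8225 for Gpr182 and 1453 to 9918 for Lyve1. Per kilobase of exon (GENCODE M21), the median level over the libraries was highest for Lyve1 at 13.0, then Pdpn at 8.96, Gpr182 at 5.04, Flt4 at 1.80, Mmrn1 at 0.472, Prox1 at 0.402 and Reln at 0.313. Lyve1 and Pdpn, which macrophages and fibroblasts also make, thus lay at the top of the order per kilobase, and Mmrn1, Prox1 and Reln at its low end. How selective each gene is for lymphatic cells was not measured here.

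**Figure D1:**
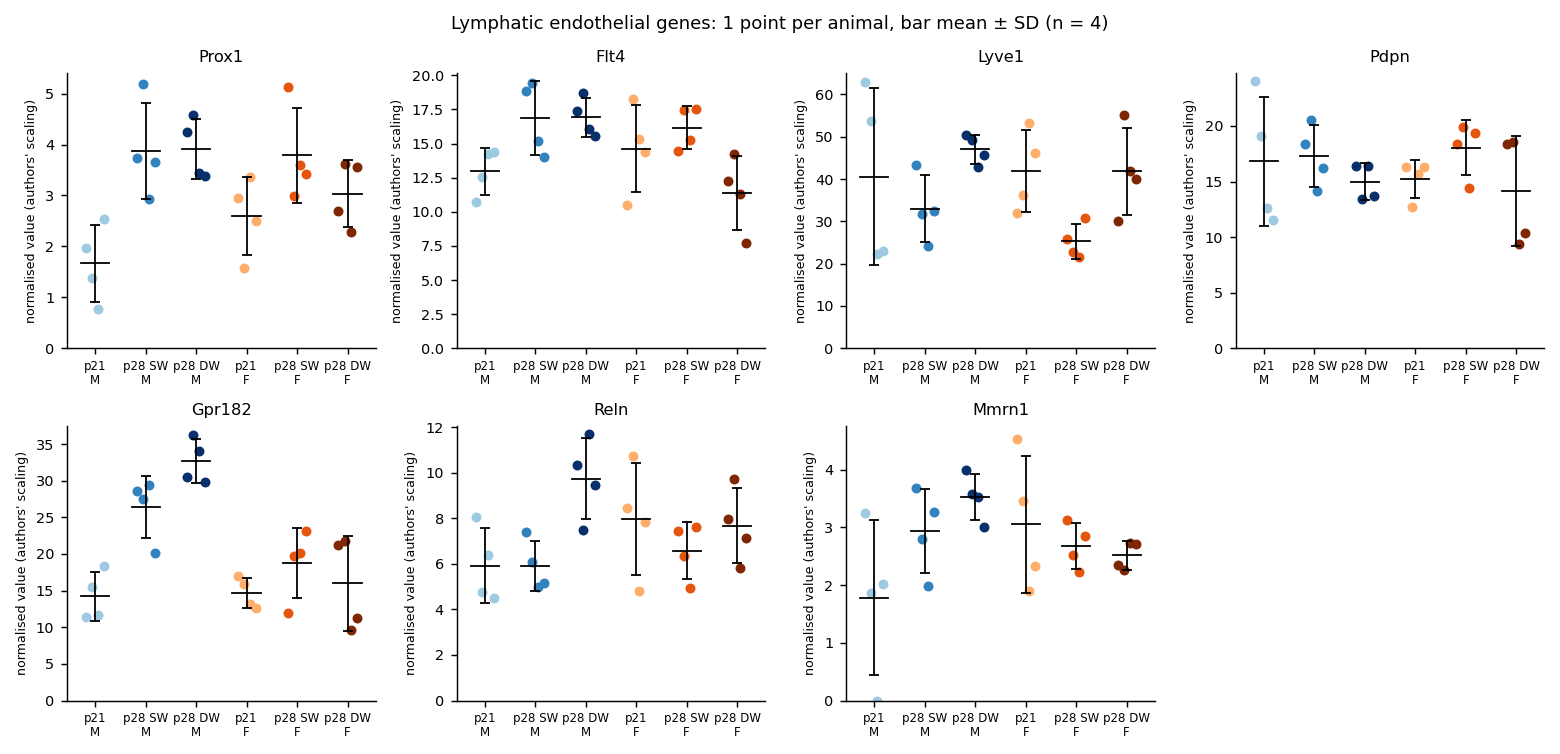
Normalised value (y axis, authors' scaling, from 0) of each of the 7 lymphatic endothelial genes in each of the 24 mice (points) by group (x axis), with the mean ± SD of 4 mice as black bars. Gpr182 lies at 29.8 or above in the 4 DW males and at 18.4 or below in the 4 p21 males.

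From p21 to p28 in males, Prox1 and Gpr182 rose under both weaning schedules, and Reln and Mmrn1 also rose in the comparison with DW males. Both schedules were compared with the same 4 p21 males, so the 2 comparisons share controls. In SW males 2 of the 7 genes were called higher, beside 6.9% of all genes called higher and 11.9% called in either direction. In DW males 4 of the 7 were called higher, beside 8.86% of all genes called higher and 15% in either direction. None of the 7 was called lower in either. The median change of the 7 genes was 0.35 in SW males and 0.65 in DW males, against 0.01 and 0.02 for all genes.

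Prox1, the identity factor (ENSMUSG00000010175), was at 1.97, 1.384, 0.770 and 2.54 in the p21 males. It was at 3.73, 5.18, 2.93 and 3.65 in the SW males and at 4.25, 4.58, 3.44 and 3.38 in the DW males. Every p28 male lay above every p21 male. Among all genes, 8.53% were higher in every SW male than in every p21 male and 12.4% in every DW male. The change was 0.90 (SE 0.20, limma adjusted p = 0.00602) to SW and 0.92 (SE 0.20, adjusted p = 0.00469) to DW. The change to SW missed the threshold when the fit held no other groups (adjusted p = 0.0552) and without p21 male 53 and SW male 84 together (0.60, adjusted p = 0.0758).

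Gpr182, the chemokine receptor (ENSMUSG00000058396), was at 11.4, 15.4, 11.6 and 18.4 in the p21 males. It was at 28.6, 27.5, 29.4 and 20.1 in the SW males and at 30.5, 36.2, 34.1 and 29.8 in the DW males. The p21 males were again below every p28 male, and the DW males were all above the SW males. The change was 0.86 (SE 0.23, adjusted p = 0.0167) to SW and 1.17 (SE 0.23, adjusted p = 0.00213) to DW. The change to SW missed the threshold without p21 male 53 (0.78, adjusted p = 0.0507) or SW male 85 (0.80, adjusted p = 0.0531).

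Reln, the secreted glycoprotein (ENSMUSG00000042453), was at 8.07, 4.78, 6.38 and 4.48 in the p21 males and at 7.41, 6.06, 4.98 and 5.15 in the SW males, 2 sets that overlapped throughout. In the DW males it was at 10.3, 7.48, 11.7 and 9.45, with only p21 male 37 among the p21 males above the lowest of them. The change was 0.01 (95% interval -0.42 to 0.44) to SW and 0.65 (SE 0.21, adjusted p = 0.0392) to DW. The call to DW was lost when the fit held no other groups (adjusted p = 0.0612) and without any 1 of p21 males 38, 53 and 54 or DW males 79, 86 and 87.

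Mmrn1, the multimerin gene (ENSMUSG00000054641), was at 3.25, 1.86, 0 and 2.02 in the p21 males, where 3 reads would have given 0.0462 in the library at 0. It was at 3.69, 2.80, 1.98 and 3.27 in the SW males and at 3.99, 3.58, 3.53 and 3.01 in the DW males. The change was 0.66 (SE 0.28, adjusted p = 0.138) to SW and 0.88 (SE 0.28, adjusted p = 0.0416) to DW. Without the library at 0, p21 male 53, the change to DW was 0.44 (adjusted p = 0.148). The call was also lost without DW male 79 (adjusted p = 0.0952), 80 (0.0764), 86 (0.0804) or 87 (0.0711), and it was lost in 6 of 8 other settings. By edgeR's test of the recovered reads the change was 0.95 (adjusted p = 0.279), and with log2 CPM in limma it was 2.39 (adjusted p = 0.0967).

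The receptor and the 2 surface glycoproteins were not called in males. Flt4, the VEGF-C receptor (ENSMUSG00000020357), was at 10.7, 12.6, 14.2 and 14.4 in the p21 males, 18.8, 19.4, 15.2 and 14.0 in the SW males and 17.4, 18.7, 16.1 and 15.5 in the DW males. All DW males lay above all p21 males, while SW male 124 lay within the p21 range. The change was 0.35 (SE 0.16, adjusted p = 0.172) to SW and 0.37 (SE 0.16, adjusted p = 0.138) to DW. Lyve1, the hyaluronan receptor (ENSMUSG00000030787), spread most among the p21 males, at 62.8, 53.8, 22.4 and 22.9, so that a change of -0.17 (interval -0.72 to 0.38) to SW and of 0.36 (interval -0.19 to 0.91) to DW could not be resolved. Pdpn (ENSMUSG00000028583) was at 24.0, 19.1, 12.6 and 11.5 in the p21 males, 18.3, 20.6, 14.1 and 16.2 in the SW males and 16.4, 13.5, 16.4 and 13.7 in the DW males. Its groups overlapped, with changes of 0.09 (interval -0.35 to 0.52) and -0.10 (interval -0.54 to 0.34).

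**Figure D2:**
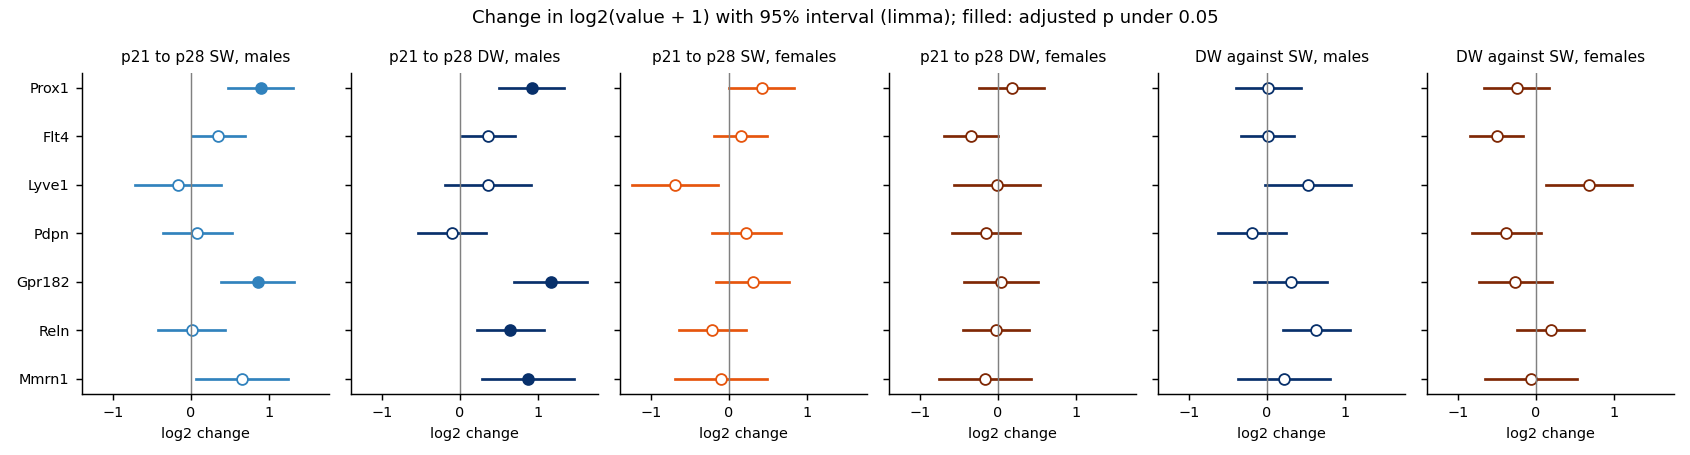
Change in log2(value + 1) (x axis) with its 95% interval from limma for each of the 7 genes (rows) in the 4 p21 to p28 comparisons and the 2 weaning comparisons (panels), with filled points for an adjusted p-value under 0.05. Filled points appear in the 2 male p21 to p28 panels, at 0.86 and 0.90 for SW and at 0.65 to 1.17 for DW.

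In females none of the 7 genes was called from p21 to p28, beside 11.6% of all genes called to SW and 12.1% to DW. At an unadjusted p under 0.05 limma placed Prox1 and Lyve1 to SW, beside 24.1% of all genes, and Flt4 to DW, beside 27.6%. By its adjusted p edgeR called no member in either comparison, beside 9.2% of all genes to SW and 10.4% to DW. Its unadjusted p was 0.0104 for Lyve1 and 0.089 for Prox1 to SW, and 0.0508 for Flt4 to DW. The p21 females are shared by both comparisons. The median change of the 7 genes was 0.16 to SW and -0.02 to DW, against 0.01 and -0.00 for all genes.

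Prox1 was at 2.95, 1.58, 3.35 and 2.50 in the p21 females, 5.14, 2.99, 3.60 and 3.43 in the SW females and 2.69, 3.62, 2.28 and 3.56 in the DW females. The female groups overlapped, with changes of 0.42 (SE 0.20, adjusted p = 0.205) and 0.18 (interval -0.24 to 0.60). Gpr182 was at 17.0, 15.8, 13.2 and 12.7 in the p21 females, 12.0, 19.8, 20.1 and 23.2 in the SW females and 21.3, 21.8, 9.68 and 11.2 in the DW females. DW females 82 and 83 were low for it and the other 2 high, and its changes were 0.31 (interval -0.16 to 0.78) and 0.04 (interval -0.43 to 0.51).

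Lyve1 went the other way in SW females. It was at 32.0, 36.1, 53.4 and 46.2 in the p21 females, 25.8, 22.7, 21.6 and 30.9 in the SW females and 30.1, 55.1, 42.0 and 40.1 in the DW females. All SW females lay below all p21 females, a separation found for 10.1% of all genes. The change was -0.69 (SE 0.27, adjusted p = 0.0994) and passed when the fit held no other groups (adjusted p = 0.0203). To DW the change was -0.01 (interval -0.56 to 0.54).

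Flt4 was at 10.5, 18.3, 15.3 and 14.4 in the p21 females, 14.4, 17.5, 15.2 and 17.6 in the SW females and 12.3, 14.3, 11.3 and 7.70 in the DW females. Its lowest value of all 24 libraries was in DW female 83, and its changes were 0.16 (interval -0.19 to 0.50) and -0.34 (SE 0.16, adjusted p = 0.18). Reln was at 8.43, 10.8, 4.80 and 7.85 in the p21 females, 7.44, 6.33, 4.92 and 7.62 in the SW females and 7.98, 9.75, 5.81 and 7.15 in the DW females. Mmrn1 was at 4.54, 3.46, 1.89 and 2.33 in the p21 females, 3.12, 2.52, 2.22 and 2.86 in the SW females and 2.36, 2.25, 2.74 and 2.72 in the DW females. Both sets overlapped in every pair of female groups. Pdpn was at 16.3, 12.7, 15.7 and 16.3 in the p21 females, 18.4, 19.9, 14.4 and 19.3 in the SW females and 18.4, 18.5, 9.42 and 10.4 in the DW females, where 82 and 83 were again the low pair. The changes to SW and DW were -0.21 and -0.02 for Reln, -0.10 and -0.16 for Mmrn1, and 0.23 and -0.15 for Pdpn, each with an interval that spans 0.

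Delayed against standard weaning at p28 called none of the 7 genes in males, beside 0.256% of all genes, and none in females, beside 1.27%. edgeR also called none in either sex, beside 0.181% of all genes in males and 0.444% in females. At an unadjusted p under 0.05 limma placed Reln in males, beside 6.94% of all genes, and Flt4 and Lyve1 in females, beside 18.9%. In males Reln was 0.64 higher in DW (SE 0.21, unadjusted p = 0.00557, adjusted p = 0.358), with all 4 DW males above all 4 SW males. Gpr182 did not overlap between the DW and SW males either, with a change of 0.31 (SE 0.23, adjusted p = 0.907). Groups apart in this way, higher in DW, were found for 5.34% of all genes in males. Prox1 and Flt4 differed by 0.02 (interval -0.40 to 0.44) and 0.01 (interval -0.33 to 0.35) between DW and SW males. Mmrn1 and Pdpn differed by 0.22 (interval -0.37 to 0.81) and -0.19 (interval -0.63 to 0.25).

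In females Flt4 was lower in every DW animal than in every SW animal, a change of -0.50 (SE 0.16, unadjusted p = 0.00622, adjusted p = 0.144). Such a separation, lower in DW, was found for 3.52% of all genes. Without DW female 77 the Flt4 change was -0.61 and passed the threshold (adjusted p = 0.0444). Lyve1 was 0.69 higher in DW females (SE 0.27, adjusted p = 0.202) and 0.53 higher in DW males (SE 0.27, adjusted p = 0.74), with overlap in each sex. The other members differed between DW and SW females by -0.24 (Prox1), -0.26 (Gpr182), 0.19 (Reln), -0.06 (Mmrn1) and -0.38 (Pdpn), each with a 95% interval that spans 0. The weaning effect was not shown to differ between the sexes for any of the 7 genes (0.0187% of all genes called). At an unadjusted p under 0.05 limma placed 1 of them, beside 5.09% of all genes: Flt4, with an interaction of 0.51 (interval 0.03 to 0.99, adjusted p = 0.802). By its adjusted p edgeR called none (0% of all genes), and its unadjusted p for Flt4 was 0.0645. The interactions of the others were 0.57 for Gpr182, 0.45 for Reln, 0.28 for Mmrn1, 0.27 for Prox1, 0.19 for Pdpn and -0.16 for Lyve1.

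Between the sexes, 1 of the 7 genes was called, in DW mice: Gpr182 was 1.06 higher in males (SE 0.23, adjusted p = 0.00855), beside 0.569% of all genes called higher in males and 2.46% in either direction. The 4 DW males were at 29.8 or above and the 4 DW females at 21.8 or below. The call was lost without DW females 82 and 83 (0.57, adjusted p = 0.328), an alternative added after their low values were seen, and when the fit held the DW groups alone (adjusted p = 0.108). Flt4 also separated the DW sexes, at 15.5 or above in males and 14.3 or below in females, with a difference of 0.56 (SE 0.16, adjusted p = 0.0739). Mmrn1, at 3.01 or above and 2.74 or below, differed by 0.36 (SE 0.28, adjusted p = 0.493). Prox1, Reln, Lyve1 and Pdpn differed by 0.29, 0.31, 0.19 and 0.13, each with an interval that spans 0. Groups apart with males higher were found for 5.26% of all genes in DW mice. At p21 none was called (0.356% of all genes), with Prox1 at -0.45 (SE 0.20, adjusted p = 0.546) and Mmrn1 at -0.67 (SE 0.28, adjusted p = 0.527) in males against females. The p21 differences of the others were -0.36 for Reln, -0.17 for Lyve1, -0.15 for Flt4, -0.06 for Gpr182 and 0.08 for Pdpn. In SW mice none was called either (3.54% of all genes), and Gpr182 was 0.49 higher in males (SE 0.23, adjusted p = 0.48). The others differed by 0.36 (Lyve1), -0.13 (Reln), 0.08 (Mmrn1), -0.06 (Pdpn), 0.05 (Flt4) and 0.03 (Prox1) in SW mice. At an unadjusted p under 0.05 limma placed Prox1 and Mmrn1 at p21 (8.6% of all genes) and Gpr182 in SW mice (9.16%). By its adjusted p edgeR called none of the 7 in either, beside 0.0937% of all genes at p21 and 2.64% in SW mice. Its unadjusted p was 0.044 for Prox1 and 0.204 for Mmrn1 at p21, and 0.0319 for Gpr182 in SW mice.

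The p21 to p28 change itself was compared between males and females. For DW, the male change minus the female change was positive for all 7 genes by limma's estimates, beside 53.2% of all genes, but none passed the threshold (0.0687% of all genes called). By edgeR's estimates it was positive for 6 of the 7, Pdpn being the exception, beside 47.6% of all genes. At an unadjusted p under 0.05 limma placed 5 of the 7, beside 17% of all genes. By its adjusted p edgeR called none (0% of all genes). For these 5 genes edgeR's unadjusted p was 0.00361 (Gpr182), 0.00641 (Flt4), 0.0291 (Prox1), 0.0354 (Reln) and 0.15 (Mmrn1). By limma the difference was 1.12 for Gpr182 (interval 0.46 to 1.79, unadjusted p = 0.00201, adjusted p = 0.139) and 0.71 for Flt4 (interval 0.23 to 1.19, adjusted p = 0.166). It was 0.74 for Prox1 (adjusted p = 0.214), 1.04 for Mmrn1 (adjusted p = 0.216) and 0.67 for Reln (adjusted p = 0.256). Lyve1 stood at 0.37 (interval -0.41 to 1.15) and Pdpn at 0.05 (interval -0.57 to 0.67), a gene that was lower at p28 by estimate in both sexes. For SW none was called (1.03% of all genes) and none had an unadjusted p under 0.05 by limma (8.15% of all genes). By its adjusted p edgeR also called none (0.025% of all genes). The estimates by limma were 0.48 for Prox1 (interval -0.11 to 1.07) and 0.55 for Gpr182 (interval -0.11 to 1.22). The SW estimates of the others were 0.76 for Mmrn1, 0.53 for Lyve1, 0.22 for Reln, 0.20 for Flt4 and -0.14 for Pdpn. So the male calls from p21 to p28 were not shown to be larger than the female changes.

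Group means give the order of each gene over the 6 groups (mean ± SD, n = 4). Gpr182 ran from 32.6 ± 3.03 in DW males and 26.4 ± 4.27 in SW males to 18.8 ± 4.79 in SW females, 16.0 ± 6.43 in DW females, 14.7 ± 2.07 in p21 females and 14.2 ± 3.33 in p21 males. Its last 4 groups overlapped in range. Prox1 ran from 3.91 ± 0.597 in DW males, 3.87 ± 0.941 in SW males and 3.79 ± 0.936 in SW females through 3.03 ± 0.661 in DW females and 2.60 ± 0.762 in p21 females to 1.67 ± 0.761 in p21 males, and neighbours in this order differed by less than the larger of their SDs, except p21 females and p21 males. Flt4 was lowest in DW females at 11.4 ± 2.74 and highest in DW males at 16.9 ± 1.42. Lyve1 ran from 47.0 ± 3.38 in DW males to 25.2 ± 4.15 in SW females, and its coefficient of variation among p21 males was 51.7%. Pdpn stayed between 14.2 ± 4.94 and 18.0 ± 2.48, a range no wider than its SD in p21 males, 5.85.

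Genes of endothelium in general moved with Gpr182 and Flt4. The 14 blood vessel and pan-endothelial genes, none of which was at 0 throughout a group, summed to 1262 to 1560 in p21 males, 1534 to 2209 in SW males and 2047 to 2257 in DW males. The sums were 1246 to 1976 in p21 females, 1641 to 2225 in SW females and 1068 to 1891 in DW females, where 82 and 83 were lowest. Of the 14 genes, 6 were called higher from p21 to SW in males, 9 to DW in males and 2 to SW in females, with 1 higher and 1 lower to DW in females. Beside them, 11.9%, 15%, 11.6% and 12.1% of all genes were called in either direction, in that order. Cldn5, a tight junction gene, rose by 1.68 to SW and 1.68 to DW in males, 1.79 to SW and 1.13 to DW in females (adjusted p = 0.0055 or lower by limma). Flt1, the VEGF receptor of blood endothelium, fell by 0.80 to DW in females (adjusted p = 0.00088).

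Over the 24 libraries, Gpr182 followed the pan-endothelial sum with a Pearson r of 0.856 (0.725 after the group means were taken out), and Flt4 with 0.826 (0.814). For Prox1 the r was 0.415, and -0.212 within groups. These are descriptions, and the points share library depth and tissue makeup. As a share of that sum, Gpr182 was 0.866 to 1.18% in p21 males, 1.29 to 1.41% in SW males and 1.35 to 1.66% in DW males, so the p28 males lay above all p21 males in this share as well. In females it was 0.802 to 1.36% at p21, 0.728 to 1.23% in SW and 0.768 to 1.15% in DW. Flt4, as a share, was 0.849 to 1.06% in p21 males, 0.725 to 0.953% in SW males and 0.759 to 0.86% in DW males and was higher in no p28 male than in the highest p21 male. Prox1 was 0.0573 to 0.1629% in p21 males, 0.14 to 0.254% in SW males, which overlapped them, and 0.1632 to 0.211% in DW males.

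**Figure D3:**
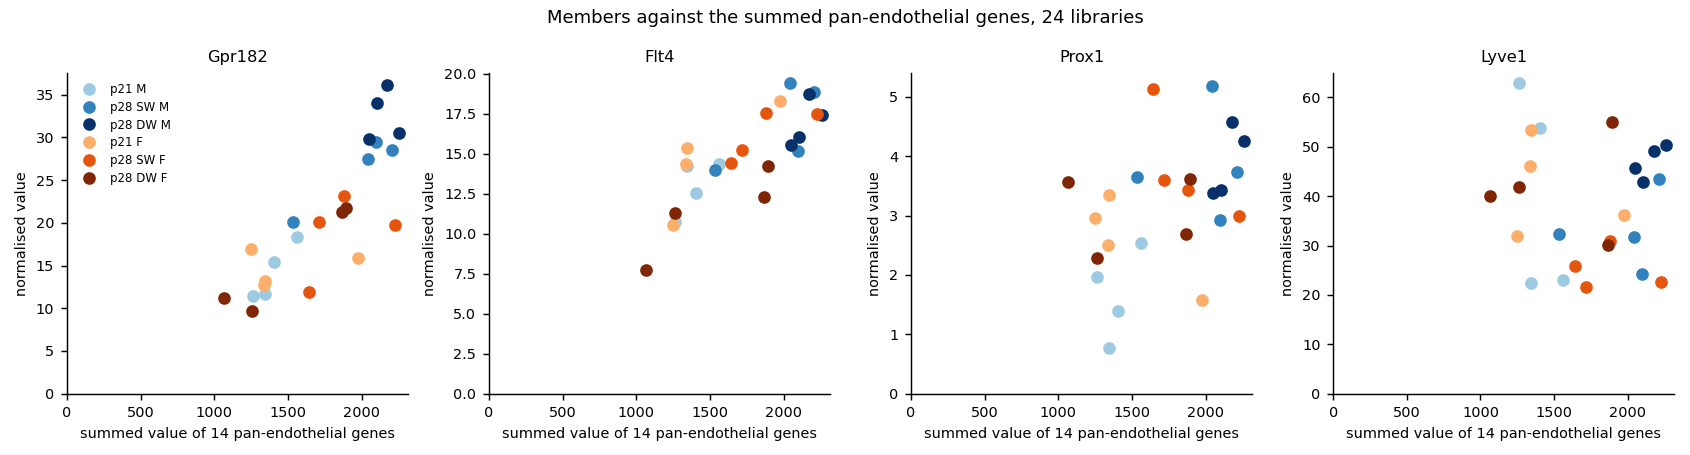
Normalised value of Gpr182, Flt4, Prox1 and Lyve1 (y axes, from 0) against the summed value of 14 pan-endothelial genes (x axis, from 0), 1 point per library, coloured by group. Gpr182 and Flt4 climb with the sum (r = 0.856 and 0.826), and Prox1 and Lyve1 scatter.

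The ligands of Flt4 and the genes that activate them were read from a list of 19 genes of VEGF-C signalling and lymphatic growth. None was called for delayed against standard weaning in either sex. From p21 to p28, 2 were called higher in SW males, 3 in DW males, 2 in SW females and 3 in DW females, and none lower, beside 11.9%, 15%, 11.6% and 12.1% of all genes called in either direction. The list's median change was 0.14, 0.20, 0.11 and 0.09 in that order. The ligand genes themselves were not called: Vegfc was at 2.05 to 2.73 in p21 males, 1.60 to 2.14 in SW males and 1.54 to 1.89 in DW males, a change to DW of -0.34 (SE 0.15, adjusted p = 0.121) while its receptor gene stood at 0.37. Vegfd was at 19.1 to 33.4 over all libraries of males.

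Ccbe1, whose product brings the protease that activates VEGF-C to its substrate, was higher in females than in males at p28. It was at 1.05, 1.01, 1.04 and 1.39 in the p21 females, 7.87, 3.40, 6.56 and 8.41 in the SW females and 5.10, 3.66, 1.87 and 4.71 in the DW females. All p28 females lay above all p21 females, and the highest male value was 1.37. Ccbe1 rose by 1.78 to SW (SE 0.24, adjusted p = 3.33e-05) and 1.13 to DW (SE 0.24, adjusted p = 0.00399) in females. In males against females it was at -1.89 in SW (adjusted p = 7.61e-06) and -1.34 in DW (adjusted p = 0.00157). Each of these Ccbe1 calls held without any 1 animal and was lost in 1 other setting. The adjusted p there was 0.0578 and 0.186 for the female rises to SW and DW. For the sex difference it was 0.0803 in SW and 0.168 in DW. The change to SW was smaller in males by 1.42 (limma adjusted p = 0.045), which edgeR did not call (adjusted p = 0.664). That interaction was lost in 12 of 16 fits without 1 animal (adjusted p of up to 0.118), all but those without p21 male 53, p21 female 56, SW male 78 or SW female 74, and in 7 of 9 other settings, where it lay between -1.76 and -0.75. Adamts3, the VEGF-C protease, was lower in SW males than SW females by limma (-0.70, adjusted p = 0.00384) and not by edgeR (adjusted p = 0.219).

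Markers of mammary epithelium, all 6 of them detected, were higher in females beside Ccbe1. From p21 in females, 4 of the 6 were called higher to SW and 0 of 6 to DW. In either direction 11.6% and 12.1% of all genes were called there. Against females 6 of 6 markers were called lower in SW males and in DW males (3.54% and 2.46% of all genes called). Their summed level was 36.1 to 142 in p21 females, 185 to 257 in SW females and 77.0 to 158 in DW females, against 0.339 to 31.8 in males. Their part in the Ccbe1 difference was not tested.

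In males the list's calls were Svep1, Tie1 and Nrp2. Svep1, an extracellular protein of lymphatic patterning, was at 76.9, 69.6, 42.8 and 46.1 in the p21 males, 118, 124, 80.4 and 110 in the SW males and 145, 116, 117 and 154 in the DW males. All p28 males were above all p21 males, with changes of 0.89 (SE 0.23, adjusted p = 0.0162) and 1.20 (SE 0.23, adjusted p = 0.00221). Tie1, an endothelial receptor tyrosine kinase, rose by 0.67 (adjusted p = 0.0259) to SW and 0.79 (adjusted p = 0.00834) to DW. Nrp2, a co-receptor for VEGF-C, rose by 0.60 to DW in males (adjusted p = 0.00361) and 0.43 to DW in females (adjusted p = 0.0276). Adm, also called to DW in females, rose by 0.60 (adjusted p = 0.00286) and lost its call in 1 of 8 other settings (adjusted p = 0.0715). The female Nrp2 call was lost without any 1 of p21 females 30, 55 and 56 or DW females 82 and 83 (adjusted p of up to 0.104) and in 2 of 8 other settings, with 0.31 (adjusted p = 0.22) without 82 and 83 together. Without p21 male 53, Svep1 and Tie1 missed the threshold to SW (adjusted p = 0.058 and 0.0636), and Tie1 also without p21 male 37 or SW males 78, 84 or 85 (adjusted p of up to 0.0729). Each of the 2 also missed it to SW in 1 of 8 other settings (adjusted p = 0.134 for Svep1 and 0.112 for Tie1).

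**Figure D4:**
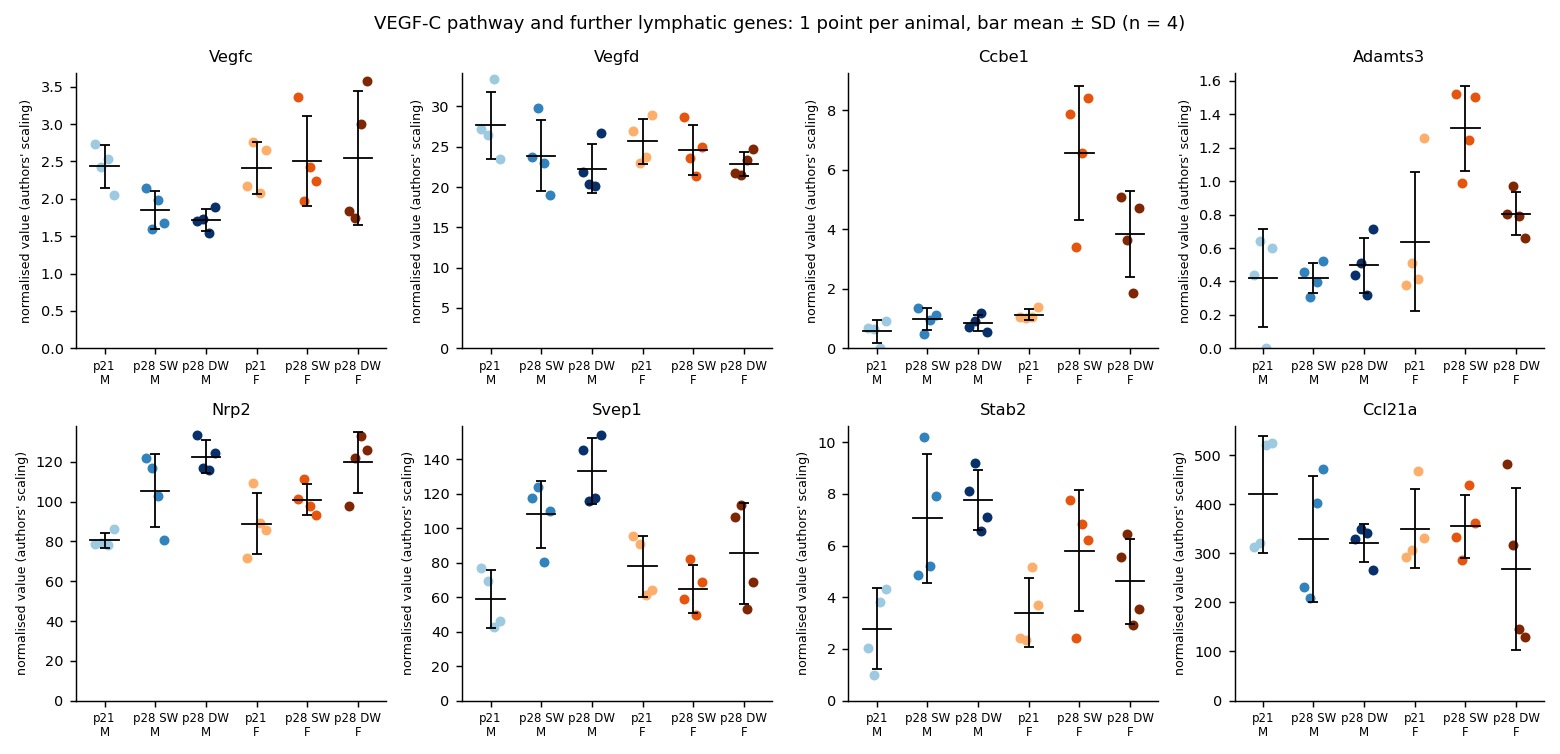
Normalised value (y axis, from 0) of 6 genes of VEGF-C signalling and of Stab2 and Ccl21a in each mouse (points) by group (x axis), with mean ± SD of 4 mice as black bars. Ccbe1 is at 1.87 to 8.41 in p28 females and at 1.37 or below in males, and Vegfd stays within 19.1 to 33.4 in males.

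Among 15 transcription factor and valve or junction genes, none was called in SW males and 2 were called higher in DW males, Sox18 and Piezo1, beside the 8.86% of all genes called higher there. Sox18, a transcription factor acting upstream of Prox1 in the embryo, rose by 0.97 (SE 0.27, adjusted p = 0.0197), from 4.54 to 7.29 in p21 males to 8.73 to 14.3 in DW males. The Sox18 call was lost without p21 male 53 (adjusted p = 0.0562), DW male 79 (0.0501) or DW male 86 (0.0565), and in 1 of 8 other settings (0.0594). Piezo1, a mechanosensitive channel needed for lymphatic valves, rose by 0.79 (adjusted p = 0.0152) and was 0.89 higher in DW males than DW females (adjusted p = 0.0207; 0.34, adjusted p = 0.447 without DW females 82 and 83). That sex difference was also lost without DW male 80 (adjusted p = 0.0765), DW female 82 (0.0962) or DW female 83 (0.0793). Among other settings it was lost in 2 of 9, that without both of these females included. The rise of Piezo1 to DW in males was lost in 1 of 8 other settings (adjusted p = 0.0503). In SW females 3 genes were called higher, the gap junction gene Gja1 (0.85, adjusted p = 0.000584), Maf (0.66, adjusted p = 0.0156) and Foxc1 (0.41, adjusted p = 0.0434), and in DW females none. Of all genes, 11.6% were called in either direction to SW and 12.1% to DW in females. The Foxc1 call was lost in 7 of 8 fits that left out 1 animal, all but that without p21 female 30 (adjusted p of up to 0.162), and in 5 of 7 other settings. That of Maf was lost without SW female 73 (adjusted p = 0.05001). Foxc2, the valve factor, was at 0 to 0.494 in every library and was not called. The list's median change was 0.06, 0.07, 0.11 and 0.02 in SW males, DW males, SW females and DW females.

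Of 7 further lymphatic genes, Stab2, a hyaluronan scavenger receptor, was called in males. It was at 2.02, 0.977, 3.81 and 4.34 in the p21 males, 4.88, 10.2, 5.22 and 7.93 in the SW males and 8.11, 9.22, 6.58 and 7.10 in the DW males. Stab2 rose by 1.14 to SW (SE 0.32, adjusted p = 0.023) and 1.31 to DW (SE 0.32, adjusted p = 0.00942), with no overlap with p21. The call to SW was lost without p21 male 37 (adjusted p = 0.0546), p21 male 38 (0.081), SW male 84 (0.079) or SW male 124 (0.0558) and in 2 of 8 other settings, while that to DW held in all. Klhl4 rose in females, by 0.87 to SW (adjusted p = 0.0181) and 1.10 to DW (adjusted p = 0.00442). To SW its call was lost without p21 female 30 (adjusted p = 0.0742), SW female 73 (0.0605) or SW female 74 (0.057). To DW it was lost in 2 of 8 other settings, among them that without DW females 82 and 83 together (0.71, adjusted p = 0.101). Ccl21a, the chemokine that draws dendritic cells into lymphatics and is also made in lymph nodes, was at 130 to 525 over the libraries and was called in no comparison.

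Macrophages and fibroblasts share genes with the 7. The 7 macrophage markers, all detected, summed to 145 to 307 in p21 males and 183 to 217 in p21 females. They summed to 364 to 548 in SW males, 461 to 564 in DW males, 453 to 508 in SW females and 336 to 605 in DW females. Of them 5 were called higher to SW in males, 7 to DW in males and 5 in each female comparison, while Lyve1, which macrophages also carry, was called in none. Of all genes, 11.9% (SW males), 15% (DW males), 11.6% (SW females) and 12.1% (DW females) were called in either direction. Lyve1 followed the macrophage sum with r = 0.136 over the libraries and 0.674 within groups. Its r with the sum of the 6 progenitor and fibroblast markers was 0.565, and 0.681 within groups. Pdpn followed the 6 progenitor and fibroblast markers with r = 0.766 and 0.851 within groups, and the macrophage sum with 0.34 and 0.82. Within groups each of these genes thus followed both sums. Of those 6 markers 0 were called from p21 to p28 in males, and 1 was called higher in each female comparison. They summed to 1888 to 5222 in p21 males, where Pdpn and Lyve1 were high in 37 and 38 and low in 53 and 54, as were the sums.

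The 10 lymph node markers summed to 1070 to 2613 in p21 males, 726 to 1285 in SW males and 991 to 1343 in DW males. In females they summed to 1128 to 1492 at p21, 820 to 1637 in SW and 1097 to 1475 in DW. Of them 3 were called lower to SW and 2 to DW in males, and 1 in each female comparison. Mmrn1 ran against this sum with r = -0.66, the highest sum being in p21 male 53, where it was at 0. The 5 platelet markers summed to 4.94 to 16.4 in all libraries, and 2 were called higher in each of the 4 p21 to p28 comparisons. The 5 skeletal muscle markers summed to 2.58 to 484 in p21 males, 387 to 4345 in SW males and 286 to 5977 in DW males, and all 5 were called higher in both. Beside these counts, 11.9% of all genes were called in either direction to SW and 15% to DW in males, and 11.6% and 12.1% in females. No marker of these lists was at 0 throughout a group. The adipocyte markers Adipoq and Cidec were also called higher from p21 to SW and to DW in males, and Lep lower to SW. Gpr182 followed the adipocyte sum with r = 0.66, and 0.549 within groups. The part of adipocyte, lymph node, platelet, macrophage or muscle RNA in the changes of the 7 genes was not tested.

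**Figure D5:**
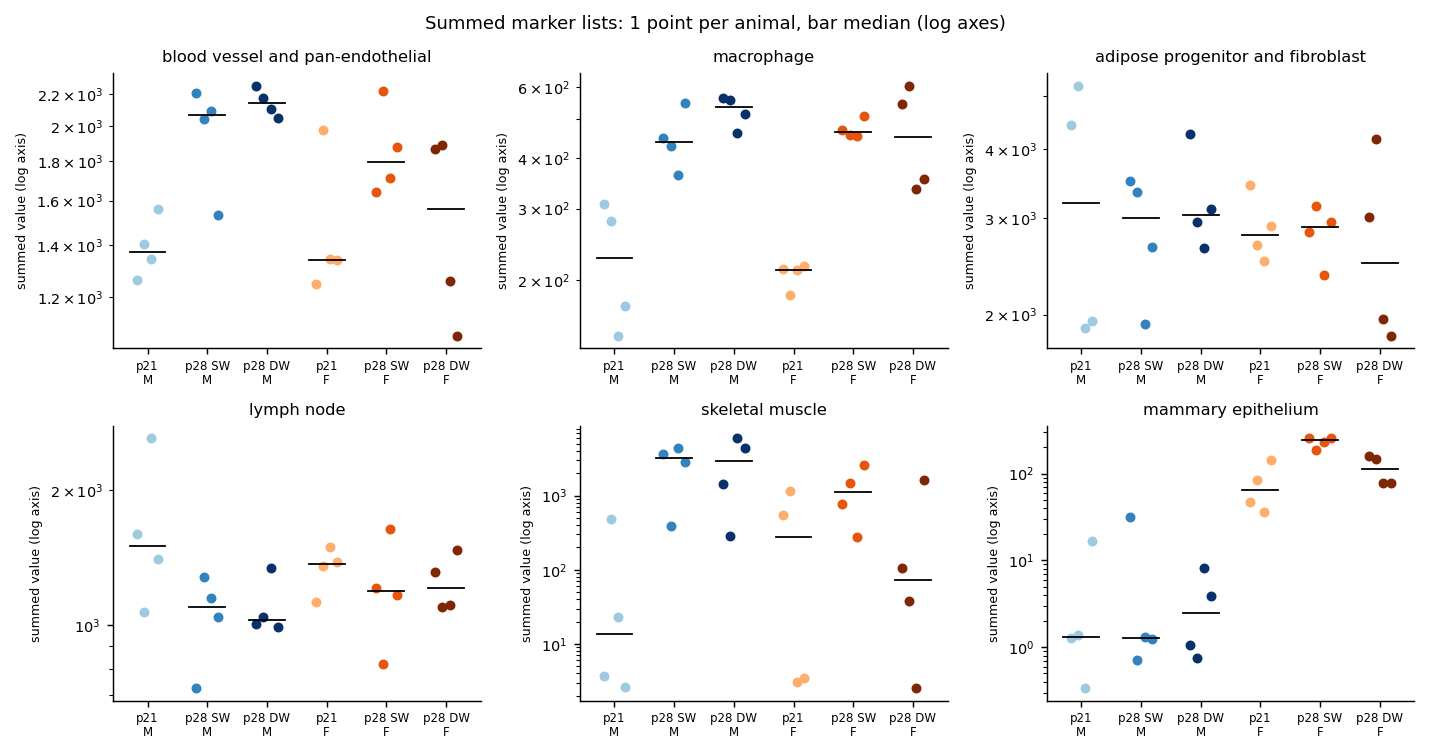
Summed normalised value (y axis, log scale) of 6 marker lists in each mouse (points) by group (x axis), with the group median as a black bar. Macrophage sums are 336 or more in every p28 mouse and 307 or less in every p21 mouse, and DW females 82 and 83 are low for pan-endothelial genes (1259 and 1068).

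The 7 genes did not rise and fall as 1 block across animals. Over the 24 libraries the highest r between members was 0.641, for Flt4 and Gpr182, followed by 0.617 for Prox1 and Mmrn1. Prox1 and Flt4 had r = 0.278, and -0.157 within groups. The 3 other genes most like each member were taken by r over the 24 libraries. For Gpr182 they were Slco2b1 (0.936, and 0.835 within groups), A4galt (0.929) and Car4 (0.903), and for Flt4 they were Shank3 (0.873), Shc1 (0.861) and Epas1 (0.855). For Prox1 they were Tlr5 (0.84), Lrrc36 (0.835) and Cd209b (0.821), and for Mmrn1 Bmx (0.897), Eda (0.891) and Arsk (0.882). For Lyve1 they were Aldh1l2 (0.853), Cgref1 (0.85) and Pcdh20 (0.831), for Pdpn Irak3 (0.842), Itga11 (0.839) and Gfpt2 (0.836), and for Reln Pgm5 (0.746), Fbln5 (0.726) and Gatm (0.699). No member was among the 3 genes most like another, by the rule that took non-members only, and these r values carry no test.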

How the data were processed

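The members and gene lists were chosen with earlier results of these data known. Per the submitters' processing notes, reads were handled with fastp, HISAT2, featureCounts, DESeq2 1.38.3 and mm10; the strand setting is not given in the sources used here, so reads of a gene and of an antisense partner cannot be told apart. The deposited signal per gene is a read number divided by a factor of each library: 100% of values were whole multiples of the library's smallest value (tolerance 0.001), so whole reads were recovered. The table had 16208 rows for 16118 genes after 90 repeated rows were left out. The authors' own fold changes were not used. The titles of the p21 libraries say p28 and 1 gives another animal number, so descriptions and tags were followed.

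Genes were kept by filterByExpr (minimum count 10, 16005 genes). limma 3.58.1 (R 4.3.3) was run on log2(value + 1) with a variance trend, 6 groups, 18 residual degrees of freedom and Benjamini-Hochberg adjustment over all genes. The file held scaled values, so edgeR 4.0.16 with TMM on the recovered reads was an alternative (29 genes called for weaning in males, 71 in females), as were DESeq2 1.42.0, log2 CPM, a pseudocount of 0.1, no filter, no trend, only the compared groups, runs of animal numbers, and leaving out animals. A test on simulated data of weaning in males (16005 genes) held 200 genes moved by 1 in log2, of which limma found 119 (9 false calls), edgeR 117 (6) and DESeq2 146 (25). By a fixed rule the 7 members are named in every comparison. Of the called genes of the other lists only some are named, and these are not always the ones with the smallest adjusted p. No animal number occurs in 2 groups, so nothing was paired. Intervals cover 95%.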

Additional observations from a re-analysis of the deposited data

Results flagged for a closer look

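Pdpn stood apart in 1 animal: p21 female 36 was at 3.78 on the log2(value + 1) scale, below the other 3 p21 females at 4.06 to 4.11, a gap of 0.839 of the group's range. It was the only one of 42 groups of 4 mice (7 genes in 6 groups) in which the lowest or highest mouse lay so far from the others. Chance alone would mark about 1 group in 20, or 2.1 of 42. The value rests on 1354 reads, and no call for Pdpn was made with or without that mouse.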

How the results depend on the processing

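None of the 7 called changes of the members changed sign under any setting. Of the 77 that were not called, 25 took the other sign in at least 1 setting, the largest of them 0.38 in size in the full fit, and edgeR gave the other sign for 4 of all 84. The rises of Prox1 and Gpr182 from p21 to DW males stayed called in all 17 settings. Leaving out 1 animal at a time gave 1 to 3 members called from p21 to SW in males (2 with all; 3 without p21 male 37, Mmrn1 being added at 0.92, adjusted p = 0.0359), 2 to 4 to DW in males (4 with all), 1 to 2 for sex in DW mice (1 with all) and 0 to 1 for weaning in females (0 with all). When the fit held no other groups than the compared pair, which leaves fewer residual degrees of freedom, these counts were 1 to SW males, 2 to DW males, 0 for sex in DW mice and 1 from p21 to SW in females (0 in the full fit, Lyve1 being added). Without p21 male 53 and SW male 84 together, the counts were 0 to SW males and 2 to DW males. Without DW females 82 and 83 together, an alternative chosen after seeing the data, the count for sex in DW mice was 0. DESeq2 gave 2 there, adding Flt4. The share of all genes called in each of these settings is not given beside the counts. A loss among the members therefore cannot be set against a loss over all genes here. The cause of these moves was not tested. For sex in DW mice the run of animal numbers as a covariate left the Gpr182 difference at 1.06 (limma adjusted p = 0.00994). Each DW sex had 2 animals in each of the same runs, so that covariate could not move the difference and is no check of it. Within runs the Gpr182 difference was 0.60 in animals 73 to 80 and 1.52 in animals 81 to 87, the run that holds DW females 82 and 83. No run held both ages, so age and run cannot be told apart in the p21 to p28 comparisons. No paired analysis was possible because animal numbers are not shared between groups. Prox1 and Mmrn1 had the fewest reads, with 50 and 0 in p21 male 53. The other p21 males had 243 to 502 Mmrn1 reads, in libraries of 110335878 to 154451057 reads against 57600711 there. Why Mmrn1 had 0 reads in that library was not tested.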
